A study of Mus musculus with 16 samples.

Results

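Gene expression was compared between bone marrow stromal cell cultures in which Fgf23 had been deleted from Dmp1-expressing cells (Fgf23cKO) and wild type (WT) cultures. These 4 Fgf23cKO and 4 WT libraries, chosen by the genotype in their labels, were 8 of the 16 RNA-seq libraries of the series. The other 8 came from Dmp1KO/Fgf23cKO and Dmp1KO cultures, 4 each, and are used only where stated. All mice were 12-week-old male littermates of lines that the paper describes as C57BL/6J. Fgf23cKO mice were Dmp1+/+ and Fgf23 fl/fl and carried a Cre transgene under the Dmp1 promoter (Dmp1-cre+). The paper's name for this Cre line carries the strain codes B6N and FVB. WT mice were also Dmp1+/+ and Fgf23 fl/fl but lacked Cre (Dmp1-cre-), so both genotypes held the floxed allele, and the presence of Cre and the loss of Fgf23 cannot be told apart. Stromal cells flushed from the marrow were grown for 21 days with ascorbic acid (50 µg/ml) and beta-glycerophosphate (10 mM), which leads osteoblast precursors to lay down and mineralize a collagen matrix. Fewer mice than libraries were described per genotype, so some libraries may share an animal, and p-values then cover the spread between libraries only.

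FGF23 is a hormone made by osteoblasts and osteocytes, the cells that form bone matrix and those buried in it. In the kidney it acts through FGF receptors with the co-receptor Klotho to increase phosphate excretion and to lower active vitamin D. DMP1 is a matrix protein of osteocytes that promotes mineralization, and its loss raises FGF23. The Dmp1 promoter drives Cre in late osteoblasts and osteocytes, so other cells of a marrow culture keep their floxed Fgf23 alleles intact.

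Library totals lay between 71657975 and 79447387 counts. Levels are given in CPM, counts per library scaled to a common total, after scaling by the trimmed mean of M values (TMM), and differences as the log2 fold change of Fgf23cKO over WT with its standard error. A gene was called at a Benjamini-Hochberg adjusted p under 0.05 in edgeR's quasi-likelihood test. Of 15902 genes tested, 3477 were called (21.9%), 2011 higher (12.6%) and 1466 lower (9.22%) in Fgf23cKO cultures. Only 384 of them (2.41% of the genes tested) changed at least 2-fold, 146 higher and 238 lower, so most calls were of differences under 2-fold. The 2 groups did not overlap for 4199 genes (26.4% of those tested). Principal component 1, with 44.96% of the variance, separated the groups, Fgf23cKO libraries at 15.8 to 23.1 and WT libraries at -21.5 to -16.2. Component 2 (17.32%) set Fgf23cKO library 1, at -26.4, apart from the other Fgf23cKO libraries, at 0.41 to 18.4, and from WT libraries, at -4.22 to 3.01. Without that library 3871 genes were called.

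A shift with transcript length went with the genotype. Among the 1539 tested genes with the shortest transcripts (56 to 1016 nucleotides), the median log2 change was 0.15, and 23.1% were higher against 3.77% lower. Among a group of the same size with the longest transcripts the median was -0.05, with 9.29% higher and 13.6% lower. Messages for ribosomal proteins, which are short, showed the same: of 80 tested, 70 were higher and 0 lower, and their summed level was 18464 to 20298 CPM in Fgf23cKO libraries, against 13698 to 14717 CPM in WT libraries. With the length trend removed, 54 of them were called higher and 2 lower. The part of this shift in the results below was not tested beyond a second fit with the trend removed, which ended the calls stated below.

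Fgf23, the deleted gene (Entrez 64654, mm10 chr6:127072902-127082296), had 1, 3, 1 and 4 counts in Fgf23cKO libraries 1 to 4, against 48, 64, 66 and 85 counts in WT libraries 1 to 4. All 4 Fgf23cKO libraries lay far below every WT library. The ratio of depth-scaled counts was 0.0374 with an exact 95% interval of 0.0169 to 0.072, which covers counting error only. The log2 change was -4.67 ± 0.49 (adjusted p = 0.000235). Fgf23 was a rare message even in WT cultures, at 0.652, 0.794, 0.793 and 1.11 CPM. Dmp1, whose promoter drives the Cre, stood at 544, 1079, 1426 and 1445 CPM in Fgf23cKO libraries, against 808, 377, 335 and 552 CPM in WT libraries. The groups overlapped through Fgf23cKO library 1 and WT library 1, and Dmp1 was not called (log2 1.12 ± 0.38, adjusted p = 0.0717; DESeq2 adjusted p = 0.025).

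Several genes of the bone matrix were higher in Fgf23cKO cultures, among them those for osteocalcin, bone sialoprotein and type I collagen, while most genes of the osteoblast list did not pass the test. Of 20 osteoblast genes tested, 7 rose (35%, against 12.6% of all genes tested) and 0 fell, with a median log2 change of 0.37, against -0.0047 over all genes. Bglap, which encodes osteocalcin, had 402, 337, 398 and 458 CPM in Fgf23cKO libraries, against 230, 90.5, 114 and 132 CPM in WT libraries (log2 1.5 ± 0.28, adjusted p = 0.00821). Ibsp, encoding bone sialoprotein, a nucleator of mineral, had 8070, 10520, 10216 and 10389 CPM against 7782, 5402, 4024 and 5630 CPM in WT (log2 0.78 ± 0.18, adjusted p = 0.012). In both genes every Fgf23cKO library exceeded every WT library, and WT library 1 was the highest of its group. Col1a1, for a chain of type I collagen, the main fiber of bone, had 44057, 51532, 54316 and 48454 CPM against 45004, 31925, 25331 and 33484 CPM in WT. Here WT library 1 lay above Fgf23cKO library 1, and the call (log2 0.55 ± 0.16, adjusted p = 0.0367) was lost when any of WT 2, 3 and 4 or Fgf23cKO 2, 3 and 4 was left out, with adjusted p up to 0.0994.

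Atf4, a transcription factor needed for the amino acid supply and late maturation of osteoblasts, had 224, 180, 181 and 187 CPM in Fgf23cKO libraries, against 146, 118, 123 and 117 CPM in WT libraries (log2 0.62 ± 0.09, adjusted p = 0.00136). Bglap2, a near-identical neighbor of Bglap, was called with it (log2 1.13 ± 0.27, adjusted p = 0.0233), but reads can be split between the copies, and with the length trend removed its adjusted p was 0.06. The call on Bglap2 was also lost without WT 4 or without Fgf23cKO 1, 3 or 4, at adjusted p up to 0.0594. The remaining called members were Col1a2 and Sparc, and Sparc also lost its call with the length trend removed. Runx2, the master regulator of the osteoblast lineage, averaged 172 ± 9.24 CPM in Fgf23cKO cultures and 168 ± 26 CPM in WT cultures (SD, n = 4 each), with a log2 change of 0.04 ± 0.10 (adjusted p = 0.813). Sp7, which acts after Runx2, had a log2 change of -0.11 ± 0.14 (adjusted p = 0.612), and Alpl, the alkaline phosphatase that frees phosphate for mineral, one of 0.35 ± 0.18 (adjusted p = 0.206). Spp1, encoding osteopontin, missed the threshold (log2 0.46 ± 0.15, adjusted p = 0.0533) although its groups did not overlap. The count of higher osteoblast genes was 3 without WT 4 or without Fgf23cKO 4, 4 without WT 2, WT 3 or Fgf23cKO 3, and 0 in a fit of all 16 libraries. The summed level of the list was 95399 to 115231 CPM in Fgf23cKO libraries, against 58636 to 95448 CPM in WT libraries. Under 1 scaling of all 16 libraries, the median log2 level of the 7 called genes over the WT mean was 0.49, 0.6, 0.68 and 0.56 in Fgf23cKO libraries. In Dmp1KO libraries, whose Fgf23 was intact, it was higher still, at 1, 1.18, 1.14 and 1. Dmp1KO/Fgf23cKO libraries were at 0.05, -0.29, 1.75 and 1.26, and WT libraries at 0.4, -0.09, -0.3 and -0.04. In such mixed cultures more cells of a type and more RNA per cell cannot be told apart.

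**Figure D1:**
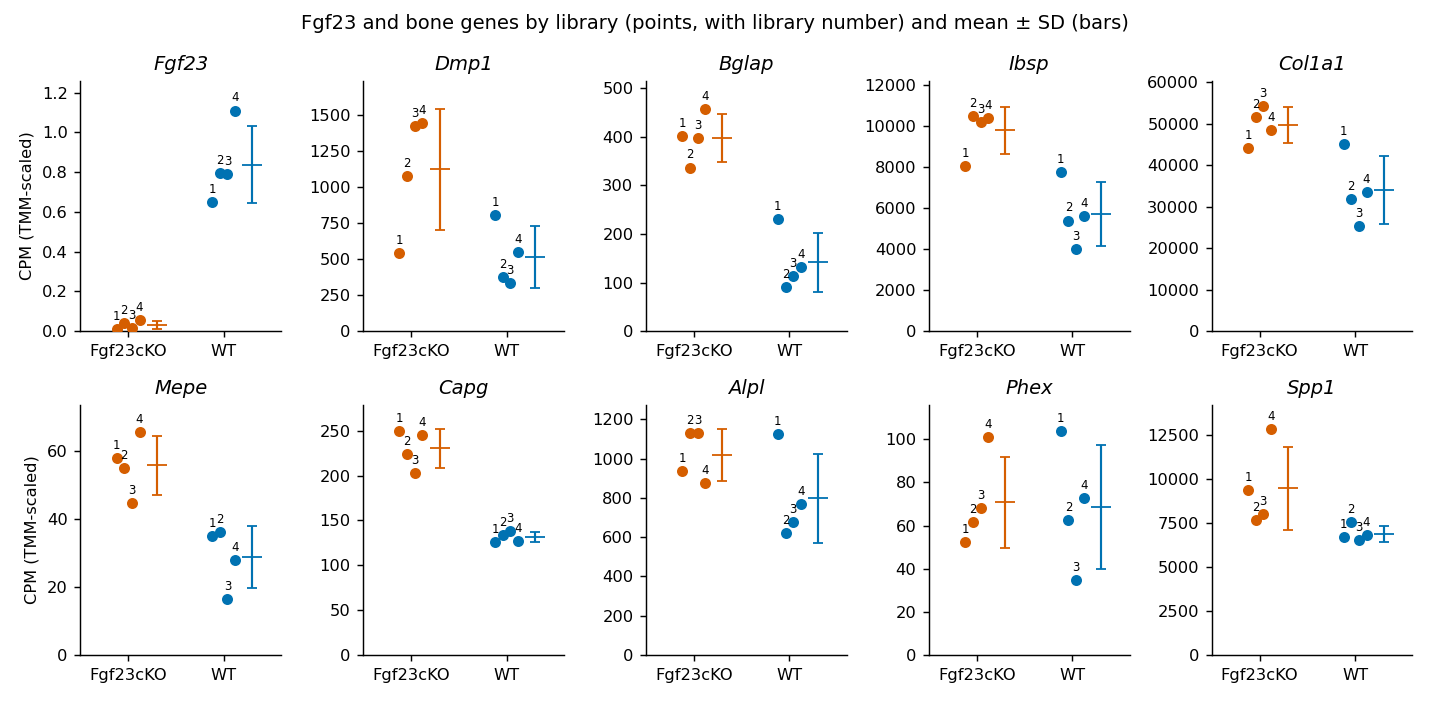
CPM (TMM-scaled, linear axes from 0) of Fgf23 and 9 genes of bone cells in the 4 Fgf23cKO and 4 WT libraries. Points are libraries with their numbers and bars the mean ± SD, and Fgf23, Bglap, Ibsp, Mepe, Capg and, narrowly, Spp1 separate without overlap while Dmp1, Col1a1, Alpl and Phex overlap.

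Osteocyte genes gave a mixed picture, with 4 of 12 tested higher (33.3%, against 12.6% of all genes tested), 0 lower and a median log2 change of 0.24. Capg, an actin-capping protein that macrophages also express, had 250, 224, 203 and 245 CPM in Fgf23cKO libraries, against 126, 134, 138 and 127 CPM in WT libraries (log2 0.81 ± 0.07, adjusted p = 0.000112). Pdpn, which encodes podoplanin, a protein of early osteocyte dendrites, was higher by a log2 of 0.47 ± 0.11 (adjusted p = 0.012). Mepe, encoding a secreted regulator of mineralization, had 57.9, 54.9, 44.6 and 65.6 CPM against 34.9, 36.2, 16.4 and 27.9 CPM in WT (log2 0.95 ± 0.24, adjusted p = 0.0281). The Mepe groups did not overlap, but the call was lost without WT 4 or without Fgf23cKO 1, 2 or 4, at adjusted p up to 0.0706. Phex, the endopeptidase whose loss causes X-linked hypophosphatemia, had 52.5, 61.5, 68 and 101 CPM against 104, 62.5, 34.6 and 73 CPM in WT, with groups that overlapped fully (log2 0.05 ± 0.33, adjusted p = 0.935). Sost, encoding sclerostin, the Wnt inhibitor that defines mature osteocytes, was at 0.43 to 2.57 CPM against 1.21 to 3.02 CPM in WT (adjusted p = 0.602), a low level in both genotypes.

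Among 14 genes of phosphate and mineral handling, 3 rose (Fam20c, Mepe and Furin) and 1 fell (Slc20a2). These shares were 21.4% and 7.14%, against 12.6% higher and 9.22% lower over all genes tested. Fam20c, the secretory pathway kinase that phosphorylates FGF23 and bone matrix proteins, averaged 125 ± 16.6 CPM in Fgf23cKO cultures and 84.3 ± 15 CPM in WT cultures (log2 0.57 ± 0.13, adjusted p = 0.015). WT library 2, at 106 CPM, lay within the Fgf23cKO range of 106 to 141 CPM. Slc20a2, the phosphate transporter PiT-2, was lower by a log2 of -0.45 ± 0.13 (adjusted p = 0.035), and Furin, a protease able to cleave FGF23, was higher by 0.22 ± 0.07 (adjusted p = 0.0482). The call on Slc20a2 was lost without WT 1, 2 or 3 or Fgf23cKO 1 or 4 (adjusted p up to 0.0896), and that on Furin without WT 1, 3 or 4 or Fgf23cKO 1, 2 or 3 (adjusted p up to 0.133). Enpp1 and Ank, which supply the mineralization inhibitor pyrophosphate outside the cell, had log2 changes of 0.01 ± 0.19 (adjusted p = 0.968) and 0.14 ± 0.19 (adjusted p = 0.629).

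The FGF pathway was measured through its ligands and receptors and through genes that ERK signaling induces. Of 14 ligand, receptor and Klotho genes, 0 rose and 2 fell (14.3%, against 9.22% of all genes tested), Fgf23 itself and Fgfr2. Without WT 2 the counts were 2 higher and 4 lower. Fgfr2 had 49.8, 47.5, 44 and 42.8 CPM in Fgf23cKO libraries, against 108, 49.4, 87.3 and 71.7 CPM in WT libraries (log2 -0.78 ± 0.21, adjusted p = 0.033). Fgf23cKO libraries were tightly grouped while WT library 2 came down into their range, and the call was lost without WT 3, WT 4 or any single Fgf23cKO library, with adjusted p up to 0.0822. Fgfr1, the receptor with which FGF23 mostly signals, averaged 633 ± 33.3 CPM and 583 ± 34.8 CPM in WT (log2 0.12 ± 0.07, adjusted p = 0.233). Kl, the Klotho co-receptor, stood at 0.401 to 0.764 CPM against 0.529 to 0.943 CPM in WT, a low level in both genotypes.

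Among 17 genes of ERK output and feedback, 6 were higher (35.3%, against 12.6% of all genes tested) and 3 lower (17.6%, against 9.22%). Myc, a growth-promoting transcription factor, had 69.5, 60.3, 60.3 and 68.9 CPM in Fgf23cKO libraries, against 38.1, 34.2, 36.2 and 36.9 CPM in WT libraries (log2 0.83 ± 0.07, adjusted p = 8.15e-05). Dusp4 and Dusp5, nuclear phosphatases that switch ERK off, were higher by 1.13 ± 0.17 (adjusted p = 0.00291) and 1.82 ± 0.30 (adjusted p = 0.00253) on the log2 scale. Spry1, a Sprouty inhibitor of receptor tyrosine kinases, moved the other way, at 20.5, 23.4, 21.1 and 27.9 CPM against 51.9, 39, 56 and 50.1 CPM in WT (log2 -1.09 ± 0.13, adjusted p = 0.000452). All 4 of these genes separated the genotypes without overlap. Spry2, Spred2 and Phlda1 were also higher, and Etv1 and Etv5, ETS factors that FGF signaling commonly induces, were lower. Dusp6, the cytoplasmic ERK phosphatase often read as an FGF target, did not pass (log2 0.24 ± 0.1, adjusted p = 0.0984), nor did Spry4 (log2 0.51 ± 0.16, adjusted p = 0.0562). Genes under the common heading of FGF output therefore went in both directions. Without WT 3 or WT 4 the lower count was 1, with the length trend removed Etv5 was lost (adjusted p = 0.0626), and in the fit of all 16 libraries 2 members were higher and 1 lower.

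Most NF-kB genes of the list used here were higher in Fgf23cKO cultures. This list, like the others here, was chosen with earlier results of these data known. NF-kB is a family of transcription factors held in the cytoplasm by IkB proteins until inflammatory receptors are engaged, after which it induces chemokines together with its own inhibitors. Of 17 NF-kB subunit and feedback genes tested, 14 rose and 1 fell (Rel), with a median log2 change of 0.63. The 14 included the subunits Nfkb1, Nfkb2, Rela and Relb, the IkB genes Nfkbia, Nfkbib, Nfkbie and Nfkbiz, and the gene for tumor necrosis factor. Tnfaip3, the A20 enzyme that terminates NF-kB signaling, had 35, 33.8, 36.6 and 38.5 CPM in Fgf23cKO libraries, against 14.6, 17.5, 16.3 and 15.1 CPM in WT libraries (log2 1.18 ± 0.08, adjusted p = 2.18e-05). Nfkbia, encoding IkB-alpha, had 70.7, 72.2, 70 and 79.5 CPM against 44.9, 41.9, 44.7 and 47.3 CPM in WT (log2 0.71 ± 0.06, adjusted p = 0.000112). The spread within each genotype was small beside the gap for both. Tnip1, a partner of A20, was higher by 0.53 ± 0.06 (adjusted p = 0.000324), and Icam1, an adhesion molecule for leukocytes, by 0.73 ± 0.08 (adjusted p = 0.000365). The count of higher members was 14 whichever library was left out and 15 with the length trend removed, but 6 in the fit of all 16 libraries. The call on Rel (log2 -0.26, adjusted p = 0.0493) was lost whichever library was left out and with the length trend removed.

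Chemokines, which draw leukocytes to a site, were partly higher: 8 of 18 tested rose, 0 fell, and the median log2 change was 0.84. Cxcl2, a neutrophil attractant, had 3.65, 7.35, 7.29 and 6.79 CPM in Fgf23cKO libraries, against 0.638, 1.03, 1.32 and 1.05 CPM in WT libraries (log2 2.63 ± 0.27, adjusted p = 0.000262). Ccl2, a monocyte attractant, had 18.8, 22.9, 16.7 and 21 CPM against 9.29, 9.82, 9.64 and 9.04 CPM in WT (log2 1.07 ± 0.1, adjusted p = 0.000164). Ccl3, which acts on monocytes and on osteoclast precursors, had 36.6, 31.7, 24 and 24.2 CPM against 11.2, 13.1, 12.6 and 12.1 CPM in WT (log2 1.25 ± 0.14, adjusted p = 0.000304). None of the 3 overlapped between genotypes. Cxcl16 (log2 0.44 ± 0.06, adjusted p = 0.00105), Cxcl1, Ccl4, Cxcl5 and Ccl7 made up the rest, and Ccl7 was lost with the length trend removed (adjusted p = 0.084). Summed over the list, the level did not separate the genotypes (586 to 663 CPM, against 543 to 772 CPM in WT). Cxcl12, the stromal chemokine that retains blood stem cells in marrow, had 195, 122, 171 and 164 CPM against 412, 126, 421 and 312 CPM in WT and was not called (log2 -0.96, adjusted p = 0.0902). In the fit of all 16 libraries 3 chemokines were called higher.

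Of the 22 NF-kB and chemokine genes called higher, 14 matched a promoter in the RefSeq table. A window of 300 bases, the 250 before and the 50 after a start, held a match to the kappa-B consensus in 9 of the 14, and none in Icam1, Ccl3, Tnf, Rela and Nfkbib. The sequences upstream of 5 textbook NF-kB targets are shown, 4 with a match and 1, Icam1, without, chosen after the matches were seen, to show where the matches lay. Each run is the 250 bases before the RefSeq transcription start on GRCm38.p6, read 5′ to 3′ on the strand of the gene, with matches in capitals to the kappa-B consensus, sought on both strands, or to the AP-1 motif TGANTCA.
Cxcl2, chr5:90903649-90903898, plus strand: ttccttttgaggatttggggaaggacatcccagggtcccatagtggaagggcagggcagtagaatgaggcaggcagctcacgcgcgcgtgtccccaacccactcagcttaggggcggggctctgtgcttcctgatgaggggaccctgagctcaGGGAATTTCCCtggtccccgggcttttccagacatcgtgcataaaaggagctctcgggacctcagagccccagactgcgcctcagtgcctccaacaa
Tnfaip3, chr10:19015411-19015660, minus strand: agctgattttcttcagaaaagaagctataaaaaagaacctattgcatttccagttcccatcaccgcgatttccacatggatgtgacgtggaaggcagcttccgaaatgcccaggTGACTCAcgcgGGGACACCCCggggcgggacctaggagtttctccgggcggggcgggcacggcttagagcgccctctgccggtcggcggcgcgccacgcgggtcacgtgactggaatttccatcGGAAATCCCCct
Tnip1, chr11:54962941-54963190, minus strand: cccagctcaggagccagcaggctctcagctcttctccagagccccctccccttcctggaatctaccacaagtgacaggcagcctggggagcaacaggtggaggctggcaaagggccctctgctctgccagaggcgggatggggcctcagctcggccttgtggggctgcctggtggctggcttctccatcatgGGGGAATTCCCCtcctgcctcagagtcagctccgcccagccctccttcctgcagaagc
Nfkbia, chr12:55492648-55492897, minus strand: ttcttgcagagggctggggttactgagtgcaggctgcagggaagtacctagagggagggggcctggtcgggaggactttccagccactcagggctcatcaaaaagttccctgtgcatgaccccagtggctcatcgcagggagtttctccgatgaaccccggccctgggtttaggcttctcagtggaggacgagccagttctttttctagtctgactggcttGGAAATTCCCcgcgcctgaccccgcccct
Icam1, chr9:21015690-21015939, plus strand: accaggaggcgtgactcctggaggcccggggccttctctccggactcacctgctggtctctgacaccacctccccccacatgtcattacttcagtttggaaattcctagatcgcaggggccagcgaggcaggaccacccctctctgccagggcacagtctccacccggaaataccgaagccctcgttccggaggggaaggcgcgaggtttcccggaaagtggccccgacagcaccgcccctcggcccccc
The Cxcl2 run held 2 overlapping kappa-B matches that began 97 and 96 bases before the start, and that of Tnip1 held 3 overlapping ones, first at 58 bases. Tnfaip3 had 2 separate kappa-B matches, at 125 and 12 bases, beside an AP-1 match at 136, and Nfkbia had a single kappa-B match at 29 bases. Tnfaip3 also has another RefSeq start whose upstream run held no match. Over the same windows of 300 bases, 10.4% of 15736 promoters of tested genes held a kappa-B match and 5.77% an AP-1 match. Counted by gene, as in the 9 of 14 above, the shares were 12.2% and 6.92% of 12409 tested genes. A kappa-B match was held by 12.8% of all genes called higher. Of the members of the same 2 lists not called higher, 4 of the 12 with a promoter held one. A match is a description of the letters and not a site of binding. A run without a match, such as that of Icam1, may still hold sites that differ from the consensus. Only 14 of the 22 called genes and 12409 of the 15902 tested genes matched a promoter, under 80% in both. No difference between gene groups was therefore tested or read from these shares.

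Immediate early genes, the first to be transcribed after growth factor or stress signals, were higher in Fgf23cKO cultures. Of 22 tested, 17 rose and 0 fell, with a median log2 change of 0.63, and the members not called were Klf2, Klf4, Klf6, Btg2 and Nr4a2. Atf3, a stress-induced transcription factor, had 54.9, 39.2, 38.7 and 37 CPM in Fgf23cKO libraries, against 22, 18.5, 19.9 and 18.4 CPM in WT libraries (log2 1.11 ± 0.13, adjusted p = 0.000378). Fosl1, an AP-1 subunit that promotes bone matrix formation in mice, had 28, 24.6, 28.7 and 32.8 CPM against 11.1, 15.1, 13.3 and 15.7 CPM in WT (log2 1.05 ± 0.12, adjusted p = 0.000378). Fosb, another AP-1 subunit, had 9.54, 8.03, 13.5 and 10.3 CPM against 4.62, 3.55, 2.93 and 2.59 CPM in WT (log2 1.59 ± 0.21, adjusted p = 0.000702). Every Fgf23cKO library lay above every WT library for all 3. Egr1, a zinc finger factor downstream of ERK, was higher by 0.93 ± 0.25 (adjusted p = 0.0321), but WT library 1, at 71.6 CPM, exceeded Fgf23cKO library 2, at 68.8 CPM. Its call was lost without WT 2, 3 or 4 or Fgf23cKO 3 or 4, at adjusted p up to 0.0822. Between 15 and 18 members were called with any single library left out, 18 with the length trend removed, and 11 in the fit of all 16 libraries.

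**Figure D2:**
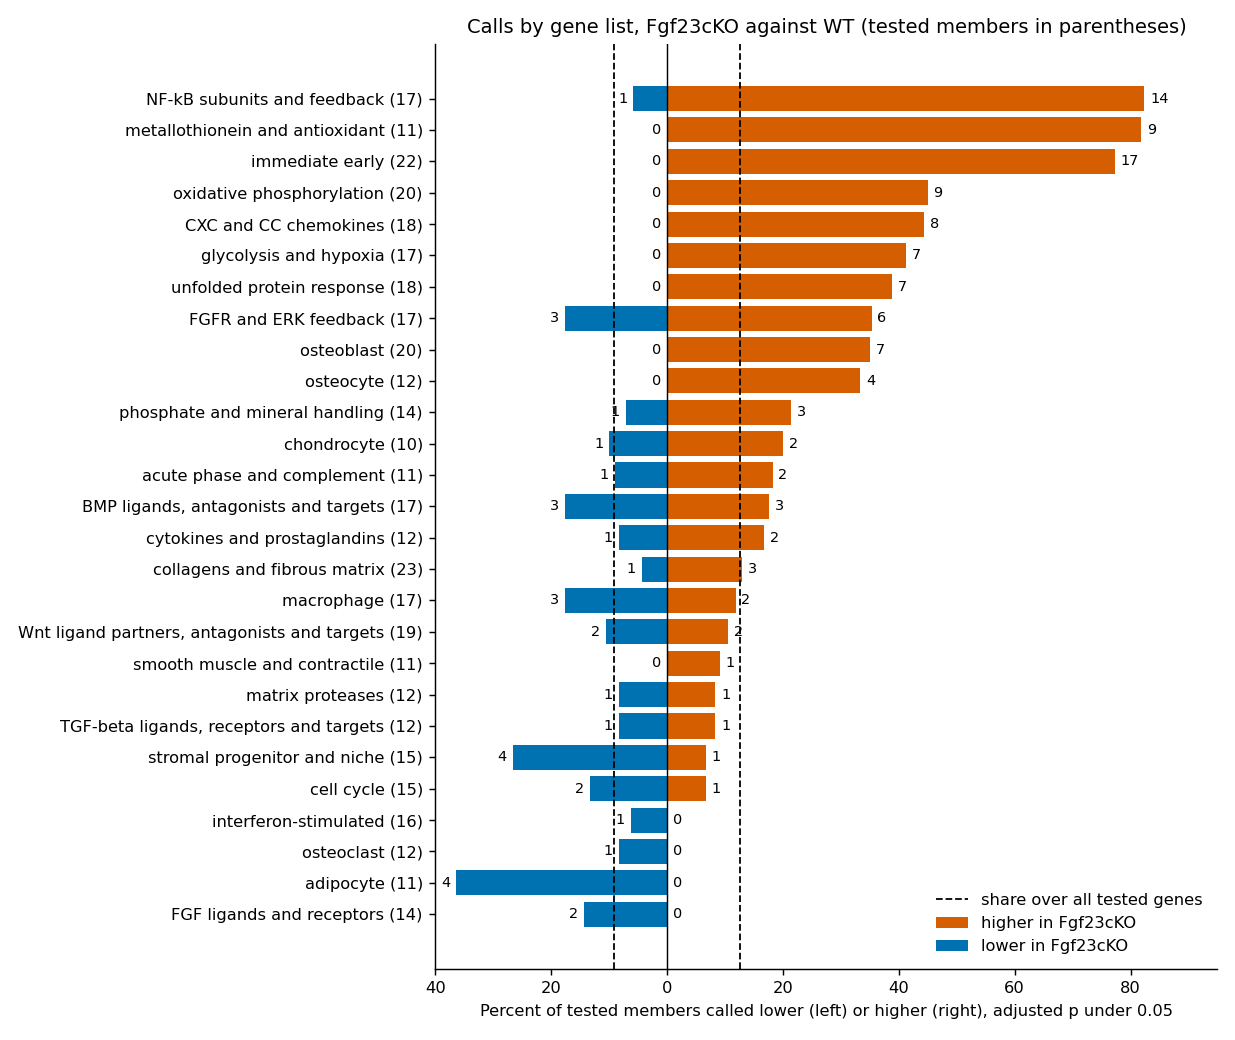
Percent of the tested members of each list of at least 10 genes that were called lower (bars to the left) or higher (bars to the right) in Fgf23cKO than in WT, with the count at each bar and dashed lines at the shares over all genes tested, 12.6% higher and 9.22% lower. The bars of the NF-kB, antioxidant and immediate early lists reach furthest to the right, at 14 of 17, 9 of 11 and 17 of 22 members. Lists and members were chosen with earlier results of these data known.

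Of 12 cytokine and prostaglandin genes other than chemokines 2 were higher (16.7%, against 12.6% of all genes tested) and 1 lower (8.33%, against 9.22%). The higher count was 4 when Fgf23cKO 1 was left out and 1 when Fgf23cKO 2 was. Il11, a cytokine of the IL-6 family that stimulates bone formation, had 4.49, 12.3, 18.6 and 9.58 CPM in Fgf23cKO libraries, against 0.828, 1.9, 1.96 and 2.45 CPM in WT libraries (log2 2.65 ± 0.48, adjusted p = 0.00716). Csf1, the growth factor of macrophages and osteoclast precursors, had 778, 968, 995 and 878 CPM against 544, 638, 759 and 722 CPM in WT (log2 0.44 ± 0.11, adjusted p = 0.0183), a call lost without Fgf23cKO 2 or 3 at adjusted p up to 0.057. Il18, an interferon-gamma inducing cytokine, was the lower one (log2 -0.67 ± 0.21, adjusted p = 0.0445), and its call was lost without WT 1, 3 or 4 or Fgf23cKO 1, 3 or 4 (adjusted p up to 0.14). Acute phase and complement genes gave 2 of 11 higher (18.2%) and 1 lower (9.09%), beside the same shares of all genes. Saa3, a serum amyloid A of macrophages and stroma, had 1.97, 4.52, 2.49 and 2.38 CPM against 1.06, 1.18, 0.842 and 0.786 CPM in WT (log2 1.55 ± 0.28, adjusted p = 0.00359). C3, the central complement protein, was higher by 0.41 ± 0.11 (adjusted p = 0.0235) and C1s1, a classical pathway protease, lower (log2 -0.96 ± 0.24, adjusted p = 0.0197). C3 was lost without WT 1, 2 or 4 or Fgf23cKO 3 or 4 (adjusted p up to 0.0658), and C1s1 without WT 4 or Fgf23cKO 4 (up to 0.0518). Interferon-stimulated genes did not share the direction of the NF-kB genes. Of 16 tested, 0 were higher and 1 lower (6.25%, against 9.22% of all genes tested), with a median log2 change of -0.40. Without WT 2, which was low among WT for many of these genes, 4 members were called lower, and without Fgf23cKO 2, 2 members.

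The same inflammatory members were then read in all 16 libraries, under 1 common scaling over them. The median log2 level of the 8 called chemokines over the WT mean was 0.9, 1.3, 0.85 and 1.02 in Fgf23cKO libraries, against -0.04, -0.06, 0.11 and 0.04 in WT libraries. In Dmp1KO/Fgf23cKO libraries it was 0.81, 0.53, -0.88 and -0.66, against -0.42, -0.83, -0.79 and -0.79 in Dmp1KO libraries. The compound libraries thus split, 1 and 2 above WT and 3 and 4 below, while all 4 Fgf23cKO libraries stayed high. For the 14 NF-kB genes the medians were 0.66, 0.49, 0.64 and 0.79 in Fgf23cKO libraries, and 0.34, 0.46, -0.51 and -0.38 in Dmp1KO/Fgf23cKO libraries, against -0.13, -0.15, -0.39 and -0.21 in Dmp1KO libraries. The 17 immediate early genes were at 0.71, 0.45, 0.83 and 0.88 in Fgf23cKO libraries, and at 0.77, 0.44, 0.06 and 0.21 in Dmp1KO/Fgf23cKO libraries, against 0.47, 0.31, 0.05 and 0.54 in Dmp1KO libraries. These members were chosen for being high in Fgf23cKO, so their height there is given by the choice.

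**Figure D3:**
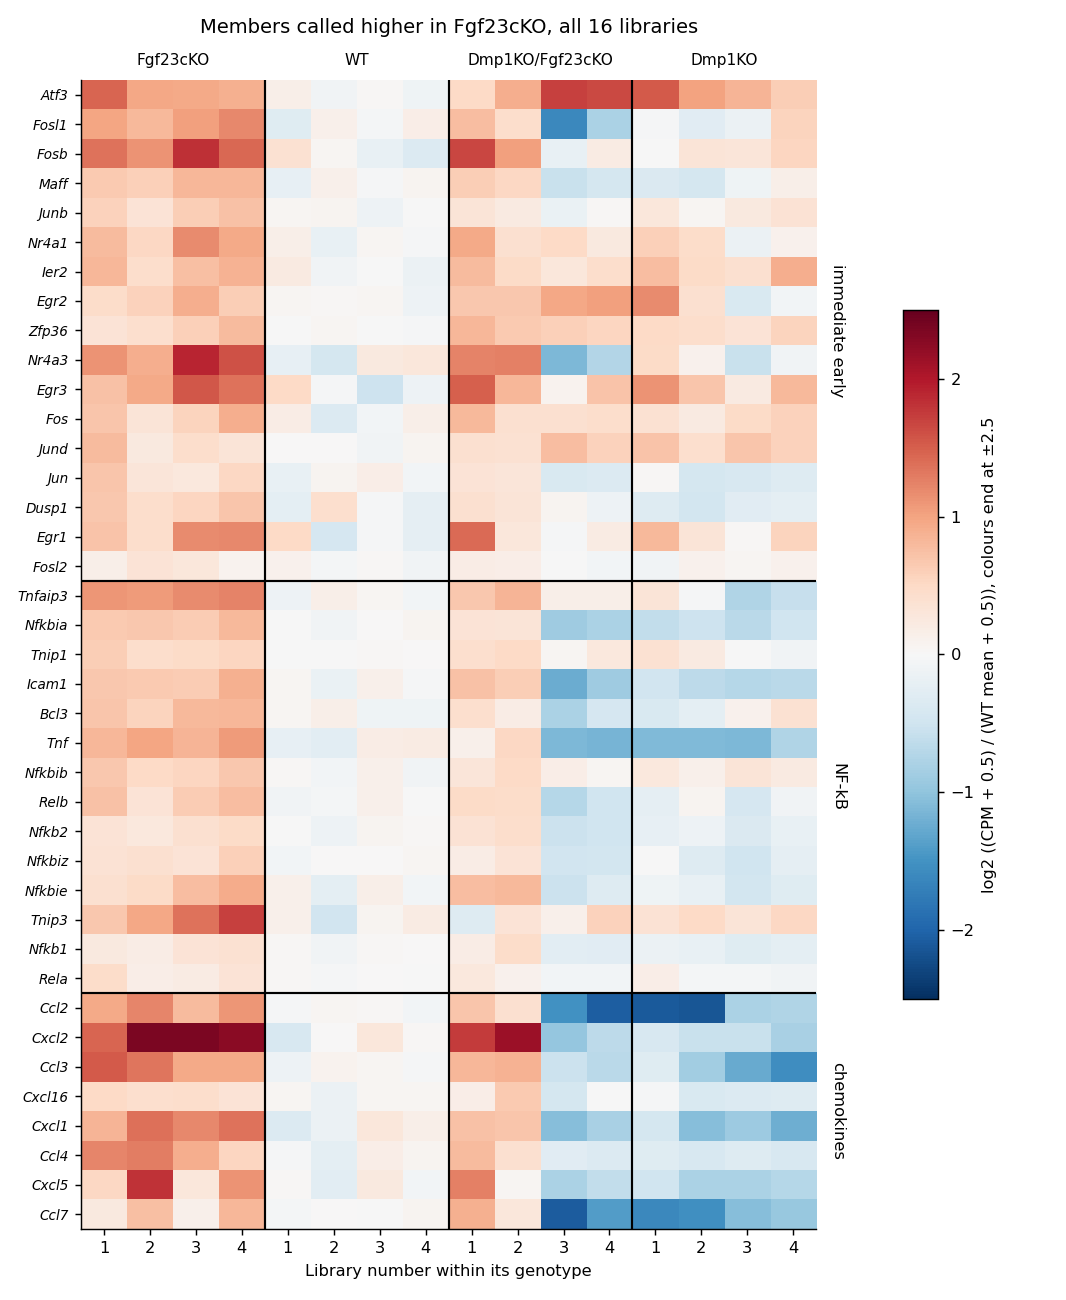
Log2 level over the WT mean (color, 0.5 CPM added) of the called NF-kB, chemokine and immediate early genes in each of the 16 libraries under a common scaling. Fgf23cKO columns are high throughout, and Dmp1KO/Fgf23cKO libraries 1 and 2 differ from libraries 3 and 4.

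Antioxidant and metallothionein genes were raised in 9 of 11 tested, with 0 lower and a median log2 change of 0.66. Most of them are targets of NRF2, the factor that senses oxidants and electrophiles. Srxn1, which repairs peroxiredoxins, had 191, 163, 184 and 181 CPM in Fgf23cKO libraries, against 84.2, 89.9, 94.8 and 85 CPM in WT libraries (log2 1.02 ± 0.07, adjusted p = 1.99e-05). Hmox1, heme oxygenase, had 487, 398, 409 and 481 CPM against 235, 230, 268 and 263 CPM in WT (log2 0.83 ± 0.09, adjusted p = 0.000226). Slc7a11, the cystine importer, had 81.9, 105, 128 and 98.9 CPM against 42, 52.5, 40.5 and 43.9 CPM in WT (log2 1.21 ± 0.13, adjusted p = 0.000429). In each of the 3 the lowest Fgf23cKO library lay well above the highest WT library. Txnrd1, thioredoxin reductase, was higher by 0.66 ± 0.07 (adjusted p = 0.000343), Mt1 and Mt2 bind metals and were called with it, and Nqo1 and Gsta4 were not called. Reads of Mt1 and Mt2, which are close copies, may be shared, and Mt1 missed the threshold with the length trend removed (adjusted p = 0.0595). The summed level of the list was 2144 to 2339 CPM, against 1397 to 1581 CPM in WT, and 6 members were called in the fit of all 16 libraries.

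Some genes of the secretory and energy machinery were higher, though most of those tested did not pass. Of 18 unfolded protein response genes, which respond to protein load in the endoplasmic reticulum, 7 rose and 0 fell (11 rose without Fgf23cKO 1, and 3 in the fit of all 16 libraries). Ddit3, encoding the stress factor CHOP, had 17.1, 9.23, 9.89 and 12.4 CPM in Fgf23cKO libraries, against 6.32, 5.8, 4.99 and 5.29 CPM in WT libraries (log2 1.12 ± 0.18, adjusted p = 0.00241). The chaperone partners Creld2 and Sdf2l1 were higher by 0.57 ± 0.13 (adjusted p = 0.0114) and 0.35 ± 0.07 (adjusted p = 0.00595). Of 20 oxidative phosphorylation genes 9 rose and 0 fell, with a median of 0.21. Their median transcript length was 948 nucleotides, within the range of the shortest genes above. Cox4i1, a subunit of cytochrome c oxidase, had 126, 132, 126 and 133 CPM against 80.4, 80.4, 84 and 76.1 CPM in WT (log2 0.69 ± 0.05, adjusted p = 5.29e-05). Cox5b, Cox6a1 and Uqcrh, also small subunits of the chain, were higher by 0.58 ± 0.07 (adjusted p = 0.000531), 0.56 ± 0.08 (adjusted p = 0.000877) and 0.53 ± 0.08 (adjusted p = 0.00135). With the length trend removed 7 members were called, Cox7a2 and Atp5b no longer among them, and in the fit of all 16 libraries 6. Glycolysis and hypoxia genes gave 7 of 17 higher and 0 lower, with 4 higher in the fit of all 16 libraries. Vegfa, the angiogenic factor of osteoblasts, had 124, 128, 156 and 147 CPM against 90.2, 92.2, 72.3 and 93.6 CPM in WT (log2 0.67 ± 0.1, adjusted p = 0.00133). Pkm, Ldha and Pgam1, enzymes of the lower steps of glycolysis, differed by 0.33 ± 0.07 (adjusted p = 0.00672), 0.29 ± 0.06 (adjusted p = 0.00511) and 0.32 ± 0.06 (adjusted p = 0.00469), small steps that were nevertheless larger than the spread between libraries.

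Stromal progenitor and niche genes tended to the other side: of 15 tested, 4 were lower (Ebf3, Kitl, Pdgfrb and Vcam1) and 1 higher (Eng), with a median log2 change of -0.37. These shares were 26.7% lower and 6.67% higher, against 9.22% and 12.6% of all genes tested. The call on Eng (log2 0.35, adjusted p = 0.0202) was lost without WT 2 or 4 or Fgf23cKO 2, 3 or 4, at adjusted p up to 0.0608, and the fit of all 16 libraries gave 0 higher and 2 lower. Ebf3, a transcription factor of the marrow cells that keep the niche open, had 4.1, 4.33, 6.2 and 6.77 CPM in Fgf23cKO libraries, against 15.4, 13.7, 16.7 and 12.8 CPM in WT libraries (log2 -1.45 ± 0.17, adjusted p = 0.000422). Kitl, stem cell factor, had 9.14, 7.45, 9.54 and 9.83 CPM against 17.9, 15.9, 19.2 and 13.8 CPM in WT (log2 -0.89 ± 0.13, adjusted p = 0.00101). Neither overlapped between the groups. Pdgfrb, a receptor of mesenchymal progenitors, was lower (log2 -0.37 ± 0.09, adjusted p = 0.016; 0.051 without WT 3), as was Vcam1, an adhesion molecule of stroma (log2 -0.45 ± 0.11, adjusted p = 0.017). Of 11 adipocyte genes 0 rose and 4 fell (36.4%), Plin1, Plin4, Cfd and Cidec. Their list did not separate in sum, at 434 to 484 CPM in Fgf23cKO libraries, against 338 to 540 CPM in WT libraries. Plin1, which coats lipid droplets, had 0.567, 1.49, 0.902 and 0.473 CPM against 3.26, 1.45, 10.1 and 11.2 CPM in WT (log2 -2.92 ± 0.71, adjusted p = 0.0237). Cfd, adipsin, had 0.185, 1.79, 0.229 and 0.501 CPM against 3.38, 1.62, 12.8 and 12.9 CPM in WT (log2 -3.50 ± 0.95, adjusted p = 0.0345). WT libraries 3 and 4 carried these messages, WT library 2 was at the Fgf23cKO level, and the count of lower members was 2 without WT 3 and 1 without WT 4, Fgf23cKO 1, Fgf23cKO 3 or Fgf23cKO 4. Plin4 was the exception, lower whichever library was left out (log2 -1.45 ± 0.3, adjusted p = 0.0103), and Pparg, the regulator of the lineage, was not called (log2 -0.29, adjusted p = 0.352).

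Wnt signaling genes had 2 members higher and 2 lower of 19 tested (10.5% each), near the 12.6% and 9.22% of all genes tested. The lower pair work together, since R-spondins bind LGR receptors to amplify Wnt signals. Rspo2 had 4.16, 6.59, 8 and 9.75 CPM in Fgf23cKO libraries, against 50.5, 13.8, 36.1 and 35.1 CPM in WT libraries (log2 -2.25 ± 0.42, adjusted p = 0.00804). Lgr5 had 0.106, 0.0417, 0.358 and 0.143 CPM against 3.46, 2.29, 1.66 and 0.878 CPM in WT (log2 -3.67 ± 0.6, adjusted p = 0.00279). Both separated the genotypes fully, though WT library 2 for Rspo2 and WT library 4 for Lgr5 came closest to the Fgf23cKO range. Notum, a secreted enzyme that inactivates Wnt ligands, was higher at 17.2, 10.7, 9.01 and 12.1 CPM against 7.88, 3.88, 3.25 and 5.52 CPM in WT (log2 1.26 ± 0.3, adjusted p = 0.018). Tcf7, a transcription factor of the pathway, was also higher (log2 0.65 ± 0.12, adjusted p = 0.00345), and Axin2, the usual readout of canonical Wnt activity, was not called (log2 0.21, adjusted p = 0.158).

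Of 17 BMP genes 3 rose and 3 fell (17.6% each, against 12.6% higher and 9.22% lower of all genes tested). Id2, a direct target of BMP receptors and an inhibitor of differentiation, had 88.8, 96.6, 98.8 and 86.9 CPM in Fgf23cKO libraries, against 47.4, 46.8, 43.4 and 46.9 CPM in WT libraries (log2 1.01 ± 0.06, adjusted p = 1.83e-05). Bmp2, an osteogenic ligand, had 117, 91, 141 and 149 CPM against 81.1, 72.3, 52.7 and 72.9 CPM in WT (log2 0.84 ± 0.18, adjusted p = 0.0115). Bmp7, another such ligand at about 1 CPM, was higher by 1.16 ± 0.31 (adjusted p = 0.0216), and Fst, follistatin, an antagonist of activins and BMPs, was lower (log2 -0.55 ± 0.15, adjusted p = 0.027). The first 2 were called whichever library was left out, whereas Bmp7 was lost without WT 3, WT 4 or Fgf23cKO 3 (adjusted p up to 0.0661) and Fst without WT 1 or 3 or Fgf23cKO 1 or 4 (up to 0.0657). The other targets Id1 and Id3 were not called, and the lower members besides Fst were Id4 and Smad9, with Smad9 lost with the length trend removed (adjusted p = 0.0562). The lower count was 1 without WT 1, 3 or 4 or Fgf23cKO 1, and 0 without Fgf23cKO 4, and the higher count was 5 without Fgf23cKO 1. In the TGF-beta group 1 of 12 was higher and 1 lower (8.33% each), below both shares of all genes tested. These were Tgfb1 itself (log2 0.42 ± 0.07, adjusted p = 0.00169) and the secreted matrix protein Tgfbi (log2 -0.61 ± 0.12, adjusted p = 0.00624).

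Of the collagens and other fibrous matrix genes 3 of 23 were higher (13%, against 12.6% of all genes tested) and 1 lower (4.35%, against 9.22%). Their median log2 change was -0.18. Ogn, the small proteoglycan osteoglycin, had 46.7, 63, 96.9 and 45.3 CPM in Fgf23cKO libraries, against 164, 118, 135 and 101 CPM in WT libraries (log2 -1.04 ± 0.27, adjusted p = 0.0293), a call lost (at up to 0.0701) when any of WT 1, WT 2 and Fgf23cKO 1, 2 and 4 was left out. The higher members were Col1a1, Col1a2 and Tnc, for tenascin-C, and their count was 0 without WT 2, 3 or 4 or Fgf23cKO 2 or 3, 1 without Fgf23cKO 4 and 5 without Fgf23cKO 1. Among 12 matrix protease genes 1 was higher and 1 lower (8.33% each), below both shares of all genes tested. Timp1, an inhibitor of matrix metalloproteases, had 949, 1011, 1068 and 1315 CPM against 545, 531, 513 and 516 CPM in WT (log2 1.05 ± 0.1, adjusted p = 0.000119). Adamts5, an aggrecan-cutting protease, had 28.1, 25.7, 25.8 and 28.7 CPM against 48.9, 44.1, 47.8 and 36.5 CPM in WT (log2 -0.71 ± 0.09, adjusted p = 0.000713). Neither overlapped between the groups, which held for 26.4% of all genes tested. In the cell cycle list 1 of 15 was higher (6.67%) and 2 lower (13.3%), beside the same shares of all genes. The higher one was Pcna (log2 0.32 ± 0.08, adjusted p = 0.0173, and 0.0517 without WT 1). The lower ones were Rrm2 (log2 -0.38 ± 0.1, adjusted p = 0.0226, and up to 0.0774 without WT 3 or WT 4) and Tyms (log2 -0.41 ± 0.12, adjusted p = 0.0346, and up to 0.0977 without WT 2 or 4 or Fgf23cKO 2, 3 or 4), enzymes of nucleotide synthesis.

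Macrophage markers were read in quantity in both genotypes and did not shift together. Of 17 macrophage markers 2 were higher (11.8%, against 12.6% of all genes tested) and 3 lower (17.6%, against 9.22%), with a median of -0.03. Their summed level was 9677 to 14170 CPM in Fgf23cKO libraries, against 10324 to 11456 CPM in WT libraries. The defining markers Csf1r, Adgre1 and C1qa were not called. Cd14, the co-receptor for lipopolysaccharide, had 52.2, 36.7, 42.1 and 44.4 CPM against 24.1, 31.1, 21 and 22.6 CPM in WT (log2 0.83 ± 0.14, adjusted p = 0.00265). Marco, a scavenger receptor, had 97.4, 73.6, 66.6 and 152 CPM against 50.5, 49.4, 55.2 and 51 CPM in WT (log2 0.92 ± 0.25, adjusted p = 0.034). Fcgr1, a high-affinity IgG receptor, had 16.3, 15.9, 18.3 and 21.5 CPM against 29.3, 28, 29.1 and 30.4 CPM in WT (log2 -0.70 ± 0.1, adjusted p = 0.000976). The called markers thus went in both directions. The third lower one, the integrin gene Itgam (log2 -0.24, adjusted p = 0.0465), was lost with the length trend removed (adjusted p = 0.0769) and without any single library other than WT 1. Cd163, a hemoglobin scavenger, was lower (log2 -0.77 ± 0.19, adjusted p = 0.0191) but not without WT 3, WT 4 or Fgf23cKO 4 (adjusted p up to 0.06), and Marco was lost without any 1 WT library or without Fgf23cKO 1 (up to 0.082).

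Osteoclast markers gave 0 of 12 higher and 1 lower (8.33%), against 12.6% higher and 9.22% lower of all genes tested. The lower one was Tnfrsf11a, the RANK receptor (log2 -0.24 ± 0.07, adjusted p = 0.0248), a call lost with the length trend removed (adjusted p = 0.051) and without WT 2, 3 or 4 or Fgf23cKO 3 (up to 0.0805). Of the 4 genes that signal to osteoclasts, Csf1 and Tnfsf11 were higher. Tnfsf11, RANK ligand, had 2.15, 1.26, 1.35 and 3.61 CPM in Fgf23cKO libraries, against 1.07, 0.694, 1.13 and 1.02 CPM in WT libraries (log2 1.09 ± 0.34, adjusted p = 0.0418). The call was lost without any 1 WT library and without Fgf23cKO 1 or 4 (adjusted p up to 0.124). Tnfrsf11b, the decoy receptor osteoprotegerin, had 10.2, 29.9, 48.1 and 24.4 CPM against 31.2, 35.2, 27.7 and 28.9 CPM in WT, a spread in Fgf23cKO that covered the whole WT range (log2 -0.13 ± 0.39, adjusted p = 0.85).

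Markers of other blood cells and of endothelium were scarce. Summed neutrophil markers were at 24 to 28.4 CPM in Fgf23cKO libraries, against 30.8 to 41.4 CPM in WT libraries, and S100a9 was at 0 in all 8 libraries. Of 5 tested, 0 were higher and 2 lower (40%, against 9.22% of all genes tested). The lower ones were the receptors Cxcr2 (log2 -0.55 ± 0.17, adjusted p = 0.0415) and Csf3r (log2 -0.39 ± 0.12, adjusted p = 0.0471). Both calls were lost without WT 1, 2 or 4 and without Fgf23cKO 2 or 4, among others, at adjusted p up to 0.126 and 0.139, and Csf3r also with the length trend removed (0.0547). Lymphocyte markers summed to 3.74 to 8.83 CPM against 4.04 to 8.24 CPM in WT, with 1 of 3 lower, Cd8a (log2 -1.25 ± 0.25, adjusted p = 0.00623). Of 2 erythroid markers tested Hba-a1, an alpha globin with a near-identical copy, was lower at 0.487 to 0.673 CPM against 2.07 to 3.9 CPM in WT (log2 -2.35 ± 0.25, adjusted p = 0.000286), and Hbb-bs was at 0 throughout. Endothelial markers summed to 5.46 to 8.93 CPM against 4.52 to 6.01 CPM in WT, and only Kdr, a VEGF receptor, was called (log2 1 ± 0.22, adjusted p = 0.00951). Chondrocyte genes summed to 660 to 1149 CPM against 652 to 919 CPM in WT. Of 10 tested, 2 were higher (20%, against 12.6% of all genes) and 1 lower (10%, against 9.22%). Sox9, the factor that specifies cartilage, was at 22.6 to 46.5 CPM against 17.1 to 23.3 CPM in WT (log2 0.92 ± 0.21, adjusted p = 0.0156), and Col10a1, the collagen of hypertrophic cartilage, was lower (log2 -0.83 ± 0.21, adjusted p = 0.0162). Prg4, lubricin, was higher by 0.83 ± 0.24 (adjusted p = 0.0308), but not without any 1 WT library or without Fgf23cKO 2 or 4 (up to 0.0834). Contractile genes, at 901 to 2138 CPM in sum against 1442 to 2129 CPM in WT, had 1 of 11 higher (9.09%, below the share of all genes). It was Smtn (log2 0.37 ± 0.08, adjusted p = 0.0114), and skeletal muscle genes had 0 of 2 in either direction. The part of these cell types in the other results was not tested.

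The largest changes were sought among called genes of at least 5 CPM on average whose groups did not overlap. Separation of the groups was thus part of the choice. The largest single rise among these genes was that of Hal, which encodes histidine ammonia-lyase, the first enzyme of histidine breakdown. Hal had 35.2, 17.9, 25.2 and 37.8 CPM in Fgf23cKO libraries, against 0.489, 0.471, 0.445 and 0.603 CPM in WT libraries, a 57.8-fold difference (log2 5.85 ± 0.28, adjusted p = 1.3e-05). Rab6b, a Golgi trafficking GTPase best known from neurons, had 9.25, 11.2, 7.95 and 8.59 CPM against 1.91, 0.930, 1.19 and 1.39 CPM in WT (6.82-fold). Wdfy1, an endosomal adaptor of Toll-like receptors, had 61.4, 70.1, 74.1 and 69.3 CPM against 12.3, 17, 15.4 and 14.9 CPM in WT (4.61-fold, adjusted p = 1.67e-06). Every Fgf23cKO library of these 3 lay far above the highest WT library. Zfp984, a zinc finger gene in a cluster of close copies, was 5.63-fold higher, Hist4h4, a histone H4 gene, 4.01-fold, and Pdcd5, a gene linked to cell death, 3.45-fold. Clcf1, a cytokine of the same family as Il11, had 17.8, 24.9, 38.4 and 21.2 CPM against 6.49, 9.93, 6.66 and 8.23 CPM in WT (3.27-fold, adjusted p = 0.00233). Clec4e, the macrophage C-type lectin receptor Mincle, had 20.3, 21.5, 29.2 and 37.4 CPM against 8.52, 12.3, 8.91 and 8.79 CPM in WT (2.81-fold, adjusted p = 0.00171). Draxin, a secreted guidance protein, was 3.09-fold higher (adjusted p = 0.0137). Of 9 natriuretic and angiopoietin-like genes 1 was higher (11.1%, against 12.6% of all genes tested) and 2 (Angptl7 and Npr3) lower (22.2%, against 9.22%). The higher one, Angptl4, which inhibits lipoprotein lipase, had 26.8, 26.9, 40.1 and 33.6 CPM against 11.5, 14.7, 13.2 and 14.7 CPM in WT (log2 1.23 ± 0.14, adjusted p = 0.000383).

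On the lower side, among genes of at least 5 CPM on average, Angptl7, a secreted angiopoietin-like protein of connective tissue, stood furthest out, at 2.08, 1.38, 0.430 and 0.945 CPM in Fgf23cKO libraries, against 29.4, 22, 34.1 and 29.9 CPM in WT libraries (log2 -4.57 ± 0.41, adjusted p = 0.000429). Efemp1, the matrix protein fibulin-3, had 1.07, 1.47, 1.6 and 1.62 CPM against 10.3, 3.11, 9.22 and 11.9 CPM in WT (log2 -2.58 ± 0.38, adjusted p = 0.00231). Slco2b1, an organic anion transporter, had 6.56, 5.78, 8 and 7.23 CPM against 27.6, 36.5, 44.2 and 38 CPM in WT (log2 -2.41 ± 0.15, adjusted p = 2.18e-05). The groups of all 3 were separate by the rule of choice. WT library 2 of Efemp1 came nearest to the other group, and Angptl7 varied most among Fgf23cKO libraries. Aqp5, a water channel, was lower by a log2 of -2.34 ± 0.21 (adjusted p = 0.000112), Car8, a member of the carbonic anhydrase family without enzyme activity, by -1.95 ± 0.26 (adjusted p = 0.00131), and B3gnt2, an enzyme that extends sugar chains, by -2.21 ± 0.33 (adjusted p = 0.0032). Npr3, the natriuretic peptide clearance receptor whose loss lengthens bones in mice, had 1.15, 2.49, 5.07 and 3.38 CPM against 11.7, 24.6, 11.5 and 7.43 CPM in WT (log2 -2.19 ± 0.51, adjusted p = 0.0206; 0.0527 without Fgf23cKO 2). F2r, the thrombin receptor PAR1, had 13.8, 17.7, 21.1 and 15.5 CPM against 35.6, 80.6, 46.3 and 54.9 CPM in WT (log2 -1.68 ± 0.26, adjusted p = 0.00369). Ntn4, a basement membrane netrin, was lower by -1.95 ± 0.41 (adjusted p = 0.0118). Calls on 2 others leaned on single libraries: Olfml2a (log2 -1.94 ± 0.52, adjusted p = 0.0344) was lost when WT 2 or Fgf23cKO 2, 3 or 4 was left out (up to 0.0812), and Gpd1, an enzyme of glycerol metabolism in fat (log2 -1.93 ± 0.54, adjusted p = 0.0384), without WT 3, WT 4 or any 1 Fgf23cKO library (up to 0.104).

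**Figure D4:**
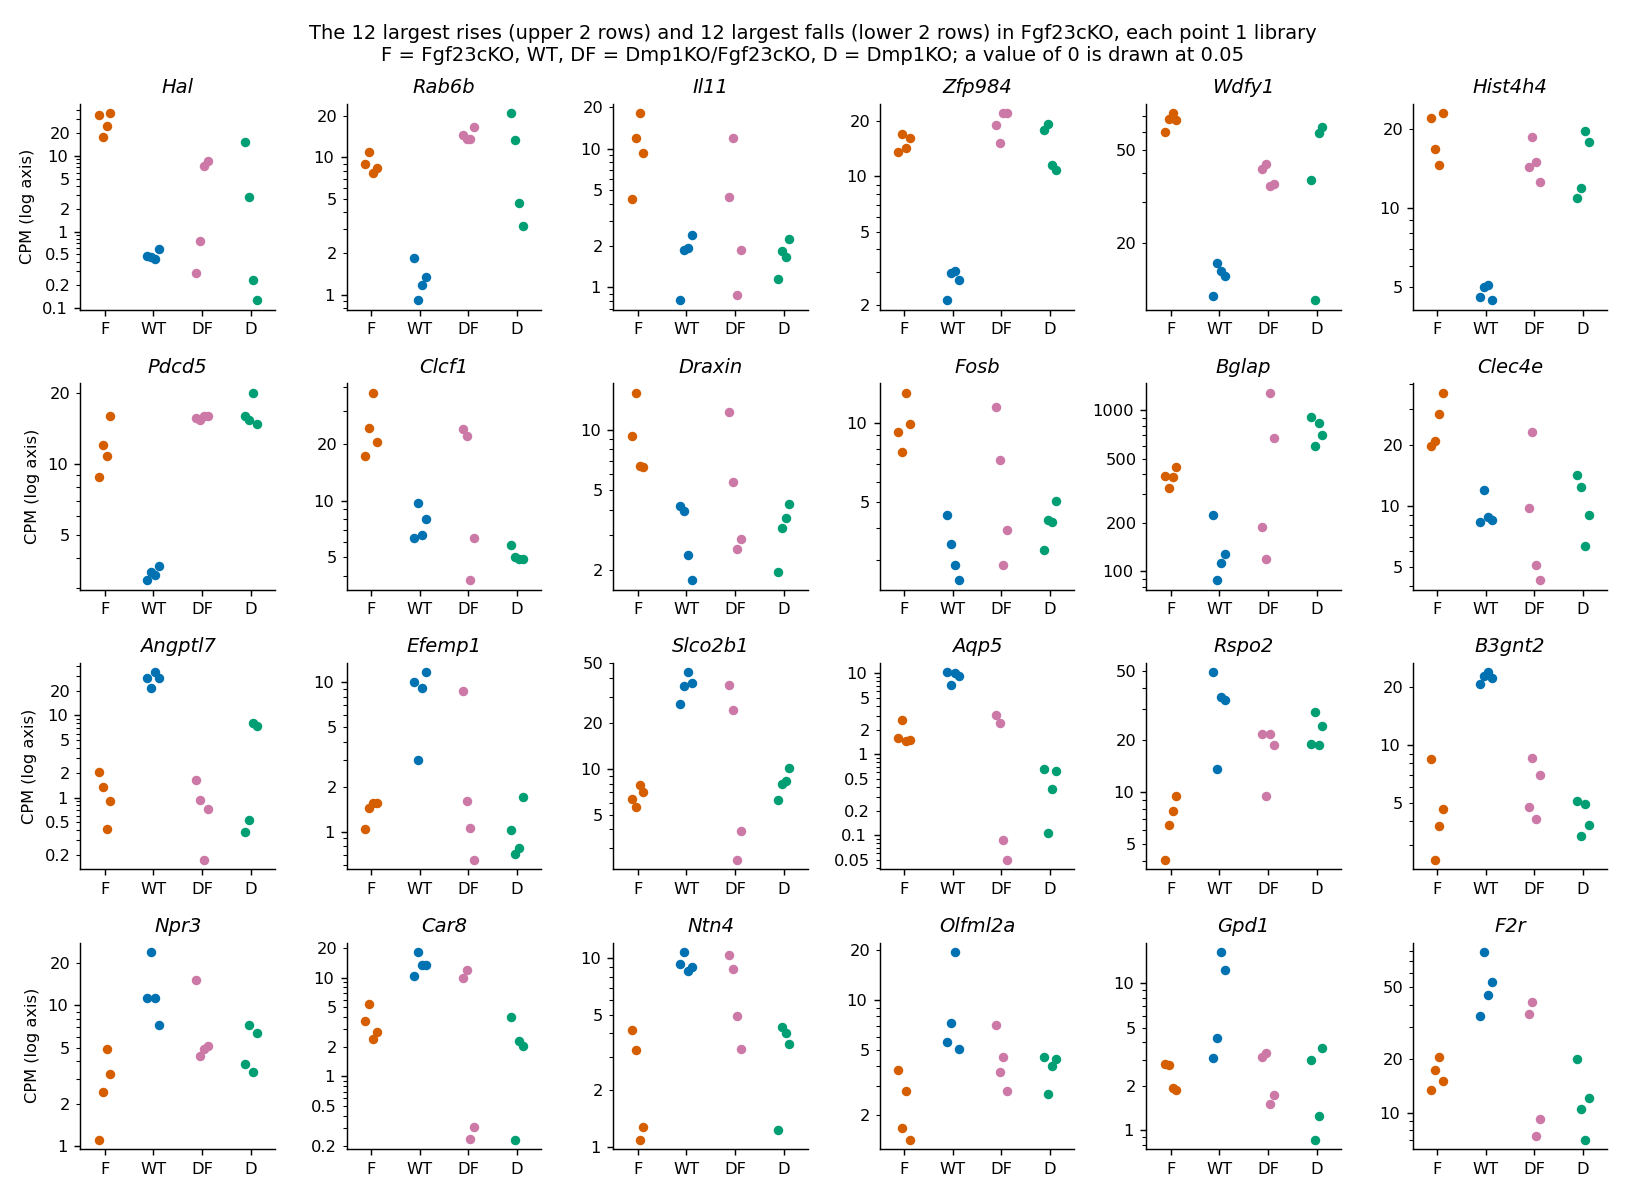
CPM (log axes, common scaling of all 16 libraries) of the 12 named genes that rose most and the 12 that fell most in Fgf23cKO, each point 1 library of Fgf23cKO (F), WT, Dmp1KO/Fgf23cKO (DF) or Dmp1KO (D). The genes were chosen to have no overlap between F and WT points. For Pdcd5, Zfp984, Hist4h4, Rab6b, B3gnt2, Angptl7 and Aqp5 the WT points stand apart from all 3 other genotypes.

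Some of these genes set WT apart from every other genotype rather than Fgf23cKO from the rest. In the common scaling Pdcd5 was at 8.81 to 15.9 CPM in Fgf23cKO libraries, against 3.23 to 3.7 CPM in WT libraries, and at 15.4 to 16 CPM in Dmp1KO/Fgf23cKO libraries, against 14.8 to 20 CPM in Dmp1KO libraries. Zfp984 was at 13.6 to 16.9 CPM against 2.11 to 3.06 CPM in WT, and at 15.2 to 22.1 CPM in Dmp1KO/Fgf23cKO against 10.8 to 19.3 CPM in Dmp1KO. B3gnt2 was at 2.51 to 8.47 CPM against 20.8 to 23.9 CPM in WT, and at 4.12 to 8.59 CPM in Dmp1KO/Fgf23cKO against 3.33 to 5.11 CPM in Dmp1KO. For these genes the Dmp1KO libraries, whose Fgf23 was intact, lay with the Fgf23-deleted ones. WT libraries of Hist4h4, Rab6b, Aqp5 and Angptl7 also stood apart from all others. Angptl7, the largest fall, was at 21.5 to 33.5 CPM in WT and at 0.377 to 8.04 CPM in Dmp1KO libraries. Other genes varied inside the other genotypes. Hal was at 0.287, 0.747, 7.41 and 8.57 CPM in Dmp1KO/Fgf23cKO libraries, against 15.3, 2.84, 0.229 and 0.124 CPM in Dmp1KO libraries, and Apobec1, an RNA-editing enzyme gene chosen here after its values were seen, was at 206, 165, 67.5 and 68.2 CPM in the 4 Dmp1KO libraries.

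The same deletion was also made on a Dmp1-null background, in cultures that share no library with those above. Between Dmp1KO/Fgf23cKO and Dmp1KO cultures 2 of 15518 genes were called (0.0129%) by edgeR, 1054 had an unadjusted p under 0.05, and DESeq2 called 42. Fgf23 was among the few, at 0.029 to 0.0996 CPM in Dmp1KO/Fgf23cKO libraries, against 1.63 to 6.19 CPM in Dmp1KO libraries (log2 -5.86 ± 0.54, adjusted p = 0.0331). Of the genes called higher in Fgf23cKO, 44.2% of 2007 had the same sign on the Dmp1-null background, and of those called lower 37.1% of 1435, where all genes tested gave 44.6% of 15317. Both shares were no higher than that of genes at large. Dmp1KO/Fgf23cKO libraries were uneven, with Col1a1, picked to show it, at 31935, 25572, 125558 and 90710 CPM in libraries 1 to 4. Such a spread makes calls harder to reach, so the low count does not show that the deletion had little effect on this background. A term for the difference between the 2 contrasts was called for 1252 of 16430 genes (7.62%). Among the 3477 genes called in Fgf23cKO cultures it was called for 1101 (31.7%). It was called for 34 of the 128 genes named by rule, 114 of which were such calls. The term uses the same Fgf23cKO and WT libraries and is not independent of the selection of these genes. Hmox1 illustrates a difference that was called: it was at 268 to 324 CPM in Dmp1KO/Fgf23cKO libraries, against 268 to 306 CPM in Dmp1KO libraries (log2 -0.02 ± 0.09), and the difference from the Dmp1-intact change was -0.86 ± 0.13 (adjusted p = 0.00281). Tnfaip3, at 17.3 to 28.2 CPM against 9.03 to 19.5 CPM in Dmp1KO, had a log2 change of 0.71 ± 0.27 there (adjusted p = 0.652), and its difference from the Dmp1-intact change was not called (-0.47 ± 0.29, adjusted p = 0.341).

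Chromosome 6, which carries Fgf23, had the highest share of large changes. On it 36 of 803 tested genes (4.48%) were called with at least a 2-fold change, against 1.21% to 3.21% on other chromosomes, while its share of calls of any size, 22.9%, was near the 21.9% of all genes. Within 1 Mb of Fgf23, 13 genes were tested and 2 called, Fgf23 and Parp11 (log2 -0.46 ± 0.11, adjusted p = 0.0147). Of 234 windows of 10 Mb with at least 20 tested genes, ranked by their share of genes changed at least 2-fold, the first was 130 to 140 Mb on chromosome 6, where 23 of 45 genes were called (51.1%) and 9 (20%) changed at least 2-fold, 4 higher and 5 lower. The windows and the genes named in this paragraph were picked after their values were seen, and the ranking is a description. Pbp2, a testis-enriched relative of a phospholipid-binding protein, had 0.0264, 0.0417, 0.115 and 0.0143 CPM in Fgf23cKO libraries, against 1.36, 2.05, 3.19 and 2.19 CPM in WT libraries (log2 -5.44 ± 0.5, adjusted p = 0.000114). Smco3, a membrane protein of unknown role, had 1.2, 0.709, 1.06 and 1.4 CPM against 0.136, 0.062, 0.180 and 0.197 CPM in WT (log2 2.91 ± 0.40). Apobec1 had 221, 205, 189 and 196 CPM against 76.5, 78.9, 76.3 and 80.9 CPM in WT (log2 1.37 ± 0.06, adjusted p = 1.67e-06). All 3 separated the genotypes cleanly and moved in both directions. Clec4e and Hist4h4 also lie on chromosome 6. Another window high in the ranking, 140 to 150 Mb on chromosome 4 (sixth), held Angptl7, Draxin, Zfp984 and several neighboring zinc finger genes, with 33 of 103 genes called (32%) and 10 (9.71%) changed at least 2-fold. Whether segments of the genome around the floxed allele or the Cre transgene differed in origin between the genotypes was not tested.

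**Figure D5:**
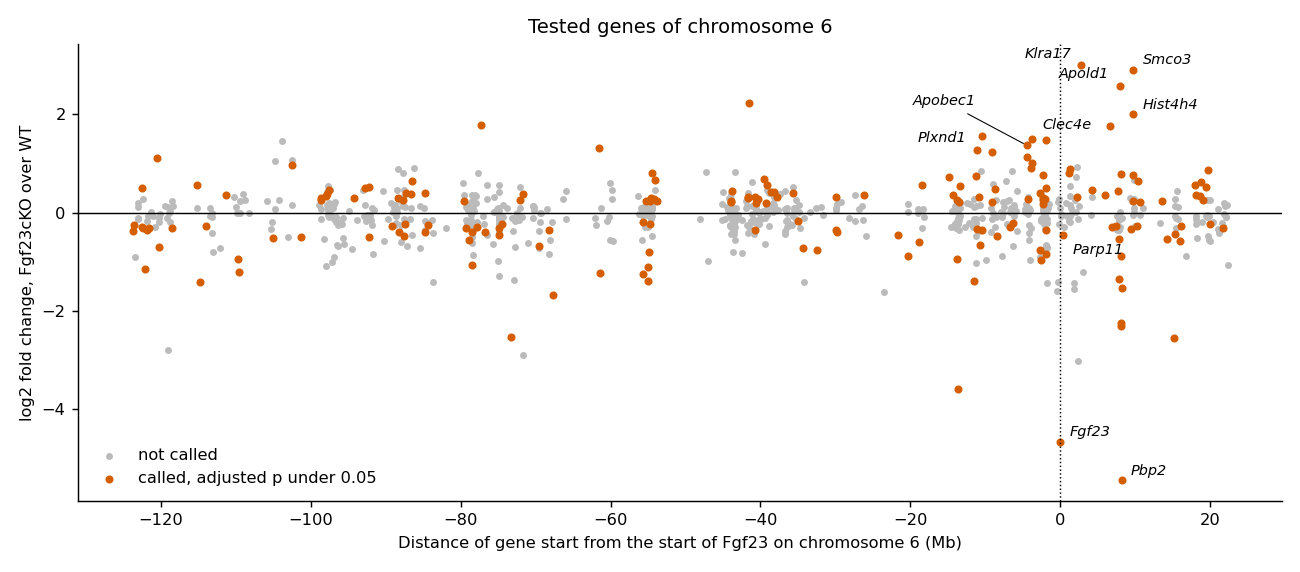
Log2 fold change of Fgf23cKO over WT for each tested gene of chromosome 6, by distance of its start from that of Fgf23 (Mb), colored where called. Called genes with large changes in both directions, among them Pbp2, Smco3, Apold1 and Hist4h4, lie within 10 Mb of Fgf23.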

How the data were processed

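RNA from bone marrow stromal cell cultures was sequenced by the authors after total RNA library preparation, and reads were aligned to mm10 and quantified in StrandNGS. Its version and annotation, and whether strand was used, were not given in the sources used here. Estimated counts were deposited for 45796 genes, and 33.4% of the values carried a fraction of a read and were rounded. A further table held log2 values that the authors normalized with DESeq size factors (0.794 to 1.147 when rebuilt, within 2.53e-06 of the deposited values). Other deposited tables with the authors' own comparisons were not used. Genes were matched to Entrez IDs (44528 of 45796), and 26 symbols stored as dates were repaired.

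The 8 Fgf23cKO and WT libraries were fitted alone in edgeR 4.0.16 (R 4.3.3): filterByExpr (minimum count 10, minimum total 15), TMM factors (0.945 to 1.047), a robust quasi-likelihood F test and Benjamini-Hochberg adjustment over the 15902 genes tested. Standard errors were the log2 change divided by the square root of F. The Dmp1-null pair was fitted likewise, and the difference between the contrasts in 1 fit of all 16 libraries. No gene-wise count differences between replicates fell within sampling noise, so none was treated as a duplicate. Replicates numbered 1 to 4 follow the order of deposit and name libraries only. Closely similar genes (Bglap and its copies, Mt1 and Mt2, alpha globins, histone H4 genes, the Zfp984 cluster) can share reads, as can overlapping genes on opposite strands. The statistics were tested on simulated data with known changes.

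Named genes were Fgf23 and Dmp1, the 12 called genes of largest change in each direction with at least 5 CPM on average and no overlap (predicted, ribosomal, mitochondrial and small RNA genes left out), up to 4 called members of each gene list with the smallest p, and a fixed set of bone and FGF genes. Values of 1 gene named by this rule are not reported here. The members and lists were chosen with earlier results of these data known. Alternatives were DESeq2 1.42.0, RLE size factors, no count filter, limma 3.58.1 on the deposited log2 values, all 16 libraries in 1 fit, and each library left out. A fit with the trend on transcript length removed, and the lists under left-out libraries and under the 16-library fit, were added after seeing the data. A depth of 71657975 to 79447387 counts per library limits rare genes such as Fgf23, and intervals on its counts cover counting error only. Tables were prepared with Python 3.11.15 and pandas 2.3.3.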

Additional observations from a re-analysis of the deposited data

Results flagged for a closer look

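Of 256 groups of 4 libraries tested for an outlying library, 13 were marked, where chance marks about 1 in 20. Fgf23cKO 1 was apart for 4 genes: high for Atf4 (224 CPM, the others 180 to 187) and Atf3 (54.9, the others 37 to 39.2), and low for Ibsp (8070, the others 10216 to 10520) and Cxcl2 (3.65, the others 6.79 to 7.35). Fgf23cKO 2 was high for Aqp5 (2.75, the others 1.52 to 1.66) and Fgf23cKO 4 for Icam1 (67.5, the others 56.1 to 57.5). WT 1 was low for Tnfrsf11a (100.0, the others 114 to 117), WT 2 high for Clec4e (12.3, the others 8.52 to 8.91) and low for Cxcl16 (63.5, the others 71.3 to 72.4). WT 3 was high for Olfml2a (19.9, the others 5.23 to 7.49) and low for Id2 (43.4, the others 46.8 to 47.4) and Vegfa (72.3, the others 90.2 to 93.6), and WT 4 was low for Uqcrh (24.9, the others 28.6 to 29.4). None of these libraries closed the gap to the other genotype for Cxcl2, Ibsp, Atf4 or Id2.

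For 34 named genes the change on Fgf23 deletion differed between the Dmp1-null and the Dmp1-intact background by a test of the difference itself (adjusted p between 0.00131 and 0.0486), 20 with a negative and 14 with a positive difference. The values are the log2 change on the Dmp1-null background minus that on the intact one, so genes that rose in Fgf23cKO cultures have negative values where the rise was smaller, absent or reversed without Dmp1. Among the largest rises they were -5.98 for Hal, -2.33 for Wdfy1, -2.30 for Rab6b, -2.09 for Zfp984, -1.99 for Hist4h4 and -1.85 for Pdcd5. Among the largest falls they were 4.12 for Efemp1, 3.45 for Slco2b1, 3.02 for Ntn4, 2.72 for B3gnt2, 2.71 for Npr3, 2.60 for F2r, 2.16 for Olfml2a and 1.92 for Rspo2. The Wnt receptor gene Lgr5 gave 4.53, Hba-a1 2.76, C1s1 2.52, Col10a1 1.95, and the niche genes Ebf3 and Kitl 1.61 and 0.85. Genes of inflammation, matrix and growth gave -1.83 (Saa3), -1.41 (Myc), -1.37 (Timp1), -0.78 (Id2) and -0.64 (Capg). Smaller differences were found for the antioxidant genes Hmox1 (-0.86) and Srxn1 (-0.75), for the respiratory chain genes Cox4i1 (-0.79), Cox5b (-0.71), Uqcrh (-0.61) and Cox6a1 (-0.56), for the glycolytic genes Pgam1 (-0.74) and Pkm (-0.48), and for Fgfr1 (-0.46). These tests reuse the Fgf23cKO and WT libraries in which most of the genes were chosen for a large or clear change. For some of these genes Dmp1KO libraries, whose Fgf23 was intact, already stood near the Fgf23cKO level in the common scaling. Cox4i1 was at 127 to 153 CPM in Dmp1KO, 122 to 129 in Fgf23cKO and 73.9 to 82.5 in WT libraries. Timp1 was at 891 to 1499, 921 to 1271 and 501 to 529 CPM in the same order. Myc, Cox5b and Uqcrh stood likewise. For others, such as Hmox1, Dmp1KO libraries (268 to 306 CPM) lay nearer WT (224 to 263 CPM) than Fgf23cKO (386 to 473 CPM).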

How the results depend on the processing

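The Fgf23cKO against WT count of 3477 called genes (2011 higher, 1466 lower) moved by over 1.5 times in 2 settings: 1873 (1097 higher, 776 lower) with all 16 libraries in 1 fit and 2061 without WT 4. Leaving out each library gave 2061 to 3871 calls, 1255 to 2264 higher and 806 to 1607 lower, the lowest without WT 4 and the highest without Fgf23cKO 1. It stayed within 1.5 times under DESeq2, RLE size factors, no count filter, limma on the deposited log2 values and the removed length trend. Of the 114 called genes among the 128 named, 81 were called whichever library was left out, 56 in the 16-library fit and 52 under every alternative. The 16-library fit also left 2 of 12 osteocyte genes higher, 1 phosphate gene higher and 0 lower, 1 BMP gene higher and 0 lower, 0 Wnt genes higher and 2 lower, 0 collagens and matrix genes higher and 1 lower, 1 macrophage marker higher and 0 lower, and 2 adipocyte genes lower. The Dmp1-null pair gave 2 calls, 42 by DESeq2 and 0 to 6 with a library left out. Genes near 0 changed sign without single libraries, none of them called: Runx2 lay at -0.03 (without WT 3) to 0.14, Sp7 at -0.20 to 0.05 (without WT 1), Phex at -0.17 (without WT 3, and -0.17 without Fgf23cKO 4) to 0.31, Enpp1 at -0.13 (without Fgf23cKO 4; -0.09 without Fgf23cKO 3, -0.03 without WT 3) to 0.16 and at -0.03 by limma, Ank at -0.01 (without Fgf23cKO 4) to 0.26, and Tnfrsf11b at -0.53 to 0.15 (without Fgf23cKO 1). The causes were not tested. No paired analysis was possible because replicate numbers follow the order of deposit and the labels pair no libraries across genotypes.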
